A study of Mus musculus with 18 samples.

Results

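Klf2, Klf4, Klf5, Esrrb, Tfcp2l1, Tbx3, Prdm14, Nr5a2 and Zfp42 are transcription factor genes of the naive pluripotency network of mouse embryonic stem cells. These 9 genes were chosen by name out of 21883 protein-coding genes, and the H3K27ac and H3K4me3 peaks around them were compared between Mettl3 Control cells and 2 Mettl3 knockout lines, KO1 and KO2. The locus of a gene was its RefSeq gene body on mm10 with 60 kb added on each side. Each peak was counted where it met a locus. The loci of Klf2, Klf5, Tfcp2l1 and Prdm14 also reach a neighbouring protein-coding gene, in turn Eps15l1, Pibf1, Clasp1 and Ncoa2. The 9 loci held 174 to 285 of the 29973 to 65398 H3K27ac peaks of a library, and 207 to 224 of the 66483 to 83644 H3K4me3 peaks. All cells were C57BL/6 mouse embryonic stem cells. They grew in DMEM with 15% FBS, 1000 U/ml LIF, 3 µM CHIR99021 (a GSK3 inhibitor) and 1 µM PD0325901 (a MEK inhibitor), and were fixed in 1% formaldehyde for 10 min. Mettl3 is the catalytic part of the m6A writer, a methyltransferase that acts on RNA. The labels name the genotypes Mettl3_Control, Mettl3_KO1 and Mettl3_KO2, without saying whether a knockout line is 1 clone. A genotype was represented by 2 libraries per mark, so that 12 peak lists were compared. The labels do not say whether replicates were separate cultures, and the p-values below then measure only how far these libraries differ, possibly for technical reasons.

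Naive pluripotency is the state of the early epiblast, and embryonic stem cells hold it in culture when LIF and the inhibitors of GSK3 and MEK are supplied. LIF acts through Stat3, GSK3 inhibition relieves repression by Tcf7l1, and MEK inhibition blocks the FGF and ERK signal that leads out of the state; each branch feeds some of these 9 genes. Klf2, Klf4 and Klf5 are related zinc-finger factors of the Krüppel-like family, of which Klf4 answers to LIF and Stat3. Esrrb and Nr5a2 are orphan nuclear receptors, Esrrb being a target of the GSK3 branch. Tfcp2l1 is a grainyhead-like factor induced by Stat3. Tbx3 is a T-box factor that bears on both self-renewal and extraembryonic endoderm. Prdm14 is a PR-domain zinc-finger factor that restrains FGF signalling and the DNA methyltransferases. Zfp42, also called Rex1, is a widely used marker of the naive state. H3K27ac marks active enhancers and promoters, and H3K4me3 marks promoters and, at very active genes, can spread into the gene body.

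The promoter sequences below are shown because the peaks of these 5 genes differed between lines at or beside the printed start. Each runs from 250 bases before to 50 bases after a RefSeq gene start in GRCm38.p6, the assembly of mm10, and was taken from RefSeq. Capitals mark matches, on either strand, to the Klf motif GGGNGTG and to the octamer motif ATGCAAAT. Klf4 lies on the minus strand at chr4:55532426-55532725. Tfcp2l1 lies on the plus strand at chr1:118627695-118627994, Nr5a2 on the minus strand at chr1:136953581-136953880, Zfp42 on the minus strand at chr8:43306960-43307259 and Esrrb on the plus strand at chr12:86421394-86421693.
Klf4: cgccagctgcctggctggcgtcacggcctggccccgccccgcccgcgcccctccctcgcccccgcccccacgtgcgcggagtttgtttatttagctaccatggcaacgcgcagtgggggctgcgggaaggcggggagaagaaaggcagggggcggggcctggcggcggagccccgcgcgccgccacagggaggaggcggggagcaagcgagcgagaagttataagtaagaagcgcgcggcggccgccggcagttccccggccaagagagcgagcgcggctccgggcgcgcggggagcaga
Tfcp2l1: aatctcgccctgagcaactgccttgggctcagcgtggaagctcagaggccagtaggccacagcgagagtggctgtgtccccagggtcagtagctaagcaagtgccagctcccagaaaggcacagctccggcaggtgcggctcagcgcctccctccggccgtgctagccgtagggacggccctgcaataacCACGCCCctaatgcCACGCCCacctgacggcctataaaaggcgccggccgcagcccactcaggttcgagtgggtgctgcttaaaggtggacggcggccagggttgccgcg
Nr5a2: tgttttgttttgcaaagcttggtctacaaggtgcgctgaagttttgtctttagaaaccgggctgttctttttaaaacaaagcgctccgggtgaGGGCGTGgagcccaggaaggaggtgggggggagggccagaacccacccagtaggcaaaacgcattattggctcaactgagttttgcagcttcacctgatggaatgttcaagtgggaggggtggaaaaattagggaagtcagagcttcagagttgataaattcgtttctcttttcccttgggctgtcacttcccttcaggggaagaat
Zfp42: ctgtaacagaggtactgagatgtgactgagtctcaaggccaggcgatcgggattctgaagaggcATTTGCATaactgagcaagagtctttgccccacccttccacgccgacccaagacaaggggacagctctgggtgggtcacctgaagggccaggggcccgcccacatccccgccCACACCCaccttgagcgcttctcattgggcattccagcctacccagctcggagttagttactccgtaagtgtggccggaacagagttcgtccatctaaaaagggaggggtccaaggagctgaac
Esrrb: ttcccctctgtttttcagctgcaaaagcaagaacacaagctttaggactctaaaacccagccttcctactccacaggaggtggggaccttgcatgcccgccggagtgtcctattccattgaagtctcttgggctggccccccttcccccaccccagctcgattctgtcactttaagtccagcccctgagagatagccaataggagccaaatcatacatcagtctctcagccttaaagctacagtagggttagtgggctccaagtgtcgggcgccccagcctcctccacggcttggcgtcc

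RefSeq gave 8 promoters for 6 of the 9 genes, with 2 each for Esrrb and Nr5a2. The Klf motif was present in 4 of the 8 promoters and in 29.2% of 32851 RefSeq promoters of the same length. Tfcp2l1 held it at positions -60 and -46 from the start, the printed Nr5a2 promoter at -157, Zfp42 at -74, and the other Esrrb promoter (start at position 86361117) at -221. The octamer motif was present in 1 promoter, that of Zfp42 at -186, against 1.74% of all promoters. The Stat motif TTCNNNGAA was in 1 promoter, the other one of Esrrb, against 8.3% of all. AAGGTCA (Esrrb and Nr5a2), the paired CCAG motif of Tfcp2l1, AGGTGTGA (T-box) and GGTCTCTAA (Prdm14) had no match in the 8 promoters and were in 4.72%, 3.44%, 1.28% and 0.256% of all. No matches overlapped. A match describes the letters of these windows and nothing more.

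Within the printed bases, H3K27ac peaks covered none of the Klf4 promoter in either Control or KO1 library, and 27% and 20.7% of it in the KO2 libraries. The H3K27ac coverage of the printed Nr5a2 promoter was 27% and 39% in Control, 37.7% and 18% in KO1, compared with 71.3% and 76.3% in KO2. For Zfp42 it was 0% and 7.33% in Control, 5.33% and 7% in KO1, compared with 30.3% and 17.3% in KO2. The Klf2 promoter, not printed, had 31.3% and 18.3% in Control and 9.67% and 15% in KO1, below Control, against 43% and 45% in KO2. Of the 5 promoters of these genes with H3K27ac in any library, 5 had both KO2 libraries above both Control libraries, as did 63.4% of 10992 RefSeq promoters with H3K27ac. The Tfcp2l1 promoter differed from these: its values were 25.3% and 32.7% in Control, 35.3% and 49.3% in KO1, compared with 44.7% and 35.7% in KO2, so both lines lay above Control and overlapped each other. The printed Esrrb promoter had no H3K27ac in any library, and its H3K4me3 coverage was 12% and 7.33% in Control, 0% in both KO1 libraries, and 20% and 17.7% in KO2.

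The whole lists differed between genotypes, which bears on every value below. H3K27ac peaks covered 14.4 and 14.6 Mb in Control, 19.6 and 17.5 Mb in KO1, and 37.0 and 35.5 Mb in KO2; H3K4me3 peaks covered 58.2 and 56.4, 46.6 and 45.3, and 50.05 and 41.7 Mb. No read total comes with a list, so sequencing depth and the amount of each mark cannot be told apart. Differences are therefore also set against the median of all genes tested or given after quantile normalization, which gives every library the same distribution over genes. Some chromosomes also differed: relative to other autosomes, H3K27ac lengths on chromosome 8, which holds Klf2 and Zfp42, were 0.32 lower in KO1 and 0.20 lower in KO2 than in Control on the log2 scale. Chromosome 4, which holds Klf4, was 0.27 lower in KO1, and chromosome 14, which holds Klf5, was 0.25 lower in KO2. The part of these shifts in single genes was examined only by subtracting the median of each chromosome. Mettl3 itself had H3K4me3 over 65.4% and 64.2% of its promoter window in Control, 37.9% and 41.5% in KO1, while KO2 had 48.0% and 44.1%, which is no readout of the deletion. Of 8 embryonic stem cell markers, all but Esrrb had H3K27ac in the promoter window in each library. Of 12 fibroblast markers, as feeder cells would carry, 3 or 4 had it: Fn1, Ccn1 and Ccn2 in each library, and Vim in the KO1 and KO2 libraries. The Vim H3K27ac coverage was higher in KO2 by 44.2 ± 2.9 points (limma adjusted p = 9.58e-05), and by 24.0 after quantile normalization. Col1a1, Col1a2, Col3a1, Thy1, Postn, Lum, Dcn and Pdgfrb were at 0 in each library, and the summed promoter coverage of the list was 93.5 to 133 points in Control, 111 to 138 in KO1 and 228 to 258 in KO2. Promoter H3K4me3 was found at 5 to 7 of the 12 fibroblast markers in a library. The part of other cells in the results was not tested.

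In Control cells, Klf2 had the densest H3K27ac of the 9 loci and Nr5a2 the sparsest. Per 100 kb of locus, Klf2 had 14.2 and 17.0 kb under H3K27ac peaks, Klf4 had 10.1 and 9.46 kb, and Klf5 had 8.91 and 8.28 kb. Esrrb, at 8.75 and 8.19 kb, overlapped Klf5, and Tbx3 followed at 7.983 and 7.996 kb. Tfcp2l1 had 6.70 and 6.23 kb, Prdm14 4.58 and 5.91 kb, Zfp42 4.38 and 5.58 kb, and Nr5a2 0.872 and 1.03 kb. Of neighbours in this order, 2 pairs were not separated by their libraries: Klf5 and Esrrb, and Prdm14 and Zfp42. In KO2 the order changed at the top. Klf2 still led, at 28.4 and 28.3 kb per 100 kb, but Tbx3 came next at 27.002 and 27.041 kb, ahead of Klf5 at 17.7 and 17.8 kb and Esrrb at 15.7 and 15.4 kb. Klf4 had 15.2 and 15.3 kb and Nr5a2 remained last at 3.46 and 2.89 kb. H3K27ac length was also set against the H3K4me3 peaks of its genotype, merged over both H3K4me3 libraries. In Control, 93.1% and 90.9% of the H3K27ac length in the 9 loci lay under them. The shares were 86.4% and 88.9% in KO1 and 83.4% in both KO2 libraries. The same shares over the whole genome were 90.2% and 88.8%, 85.1% and 86.2%, and 80.3% and 82.3%.

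**Figure D1:**
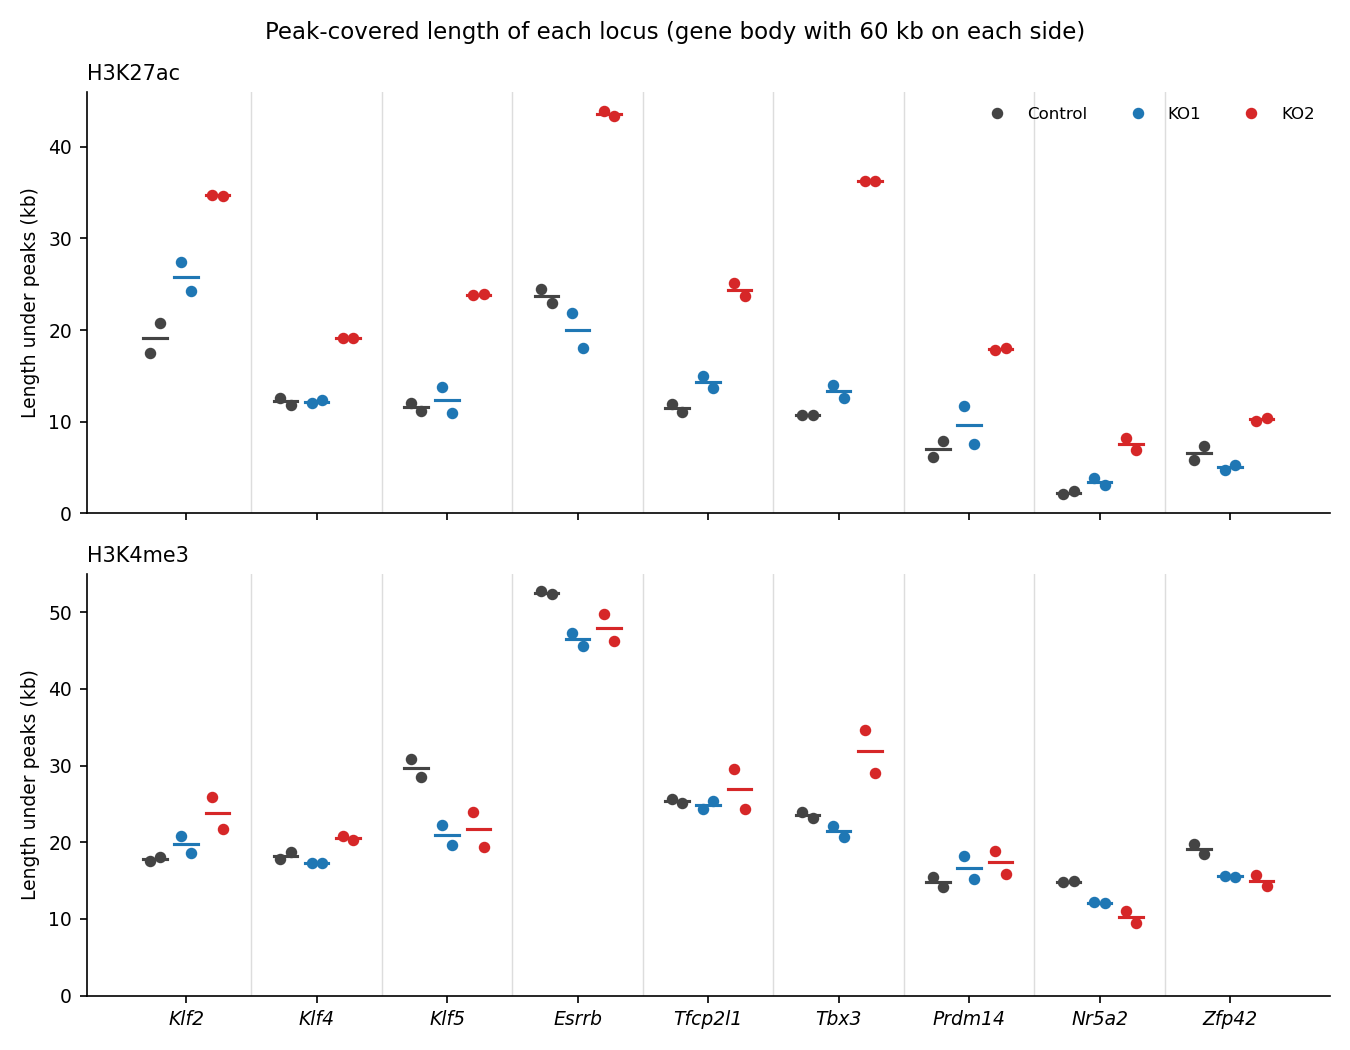
Length under H3K27ac and H3K4me3 peaks (kb) in the locus of each of the 9 genes, with 1 point per library and bars at the means of Control, KO1 and KO2. Both KO2 libraries lie above both Control libraries for H3K27ac at every gene, from 36.2 and 36.3 kb against 10.7 kb at Tbx3 to 10.1 and 10.4 kb against 5.77 and 7.36 kb at Zfp42.

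The H3K27ac length was greater in KO2 than in Control at all 9 loci, and it was greater in KO2 than in KO1 at each of them. In KO2 the ratio of mean lengths to Control ran from 1.56 at Zfp42 and Klf4 to 3.38 at Tbx3, and 9 of 9 genes passed limma at an adjusted p under 0.05 with higher values. That count must be read against all genes, of which 95.6% were called higher in KO2 and 0.194% lower. The median log2 difference of the 9 genes was 1.01, against 1.25 for all 12893 genes tested. After quantile normalization 1 of the 9 genes was called higher in KO2 and 2 lower, with 21.7% and 23.8% of all genes. The direction turned at 6 genes (Klf2, Klf4, Klf5, Esrrb, Tfcp2l1 and Zfp42) and held at Tbx3, Prdm14 and Nr5a2. In KO1, 4 of 9 genes were called higher, with 34.6% of all genes, and 1 was called lower, with 1.11% of all genes. The KO1 median of the 9 genes was 0.30, against 0.31 for all genes tested. KO2 was higher than KO1 at 9 of 9 loci, with 90.3% of all genes called higher and 0.24% lower.

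**Figure D2:**
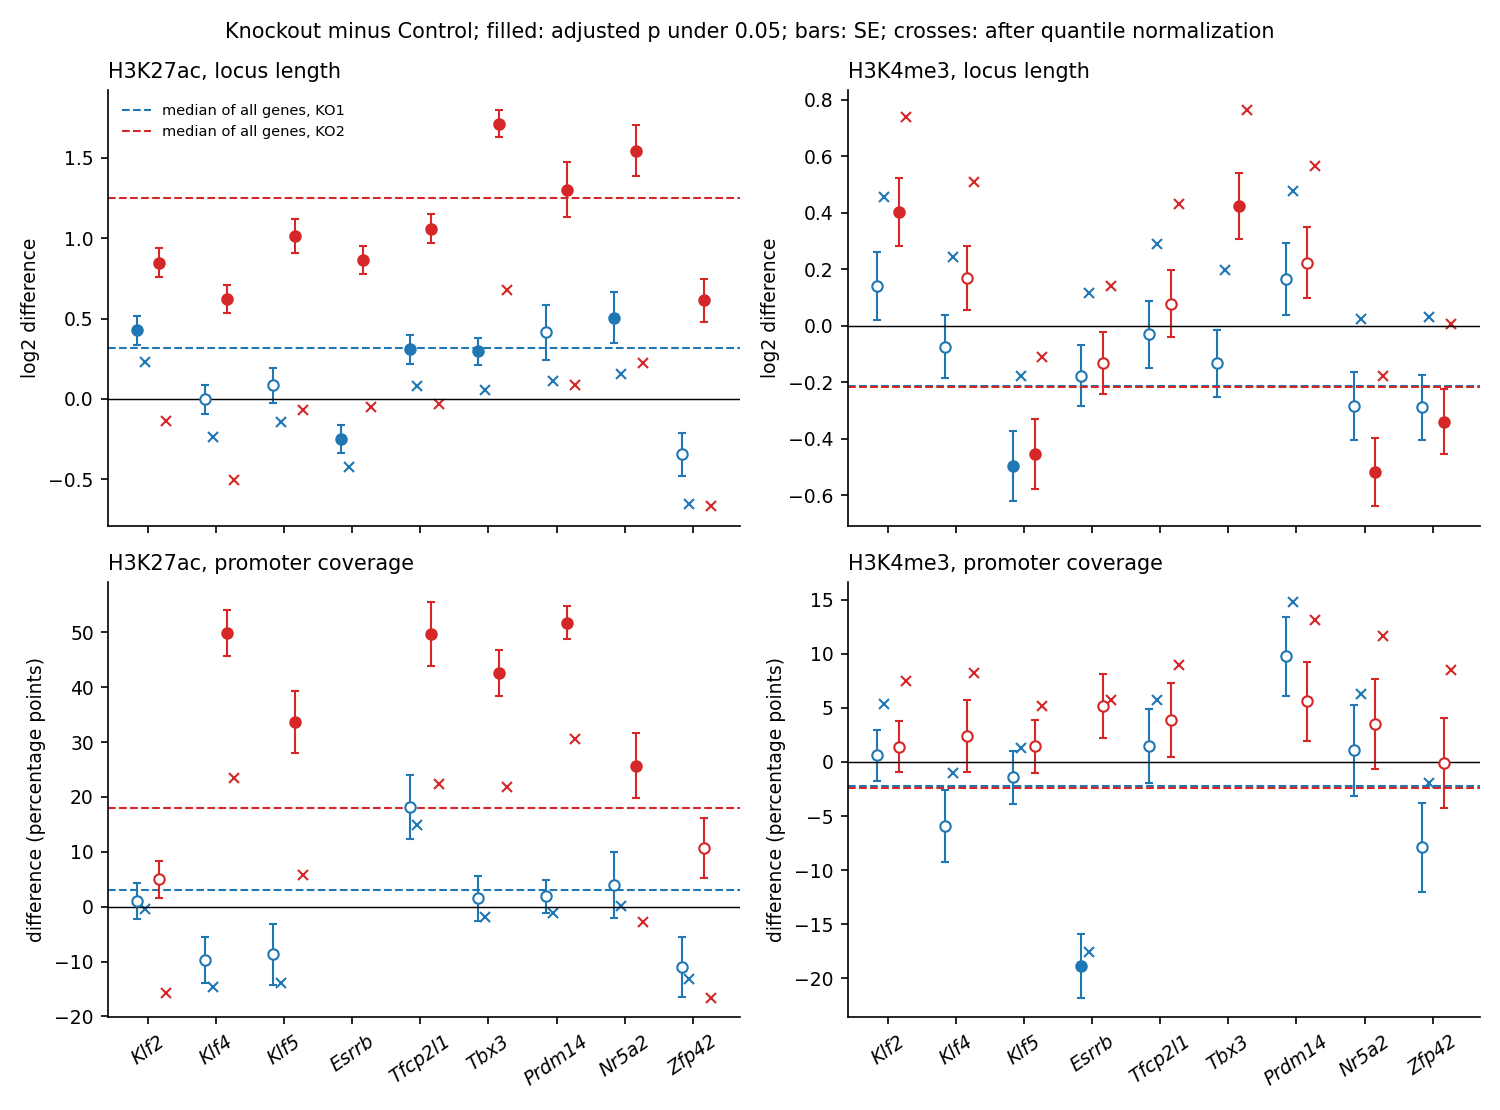
Differences from Control for each gene in KO1 and KO2 with standard errors from limma, for locus length (log2 scale) and promoter coverage (percentage points). Filled points passed an adjusted p of 0.05, crosses are the differences after quantile normalization, and dashed lines are the medians of all genes tested. For H3K27ac locus length in KO2, Tbx3 at 1.71 and Nr5a2 at 1.54 lie above the median of 1.25, and Klf4 at 0.62 and Zfp42 at 0.61 lie below it.

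Among the 3 Krüppel-like genes, the H3K27ac length of Klf2 was called higher in both lines, and that of Klf4 and Klf5 in KO2. The Klf2 locus (chromosome 8, 72259062 to 72381654) had 17.5 and 20.8 kb in Control, 27.4 and 24.2 kb in KO1, and 34.8 and 34.7 kb in KO2. No library of either line overlapped Control. The log2 difference was 0.43 ± 0.09 (SE; adjusted p = 0.00451) in KO1 and 0.85 ± 0.09 (adjusted p = 2.57e-06) in KO2. After quantile normalization Klf2 stayed higher in KO1 (0.23) and was lower, without passing the threshold, in KO2 (-0.14). The KO1 call ended without Control replicate 1 (0.30). The added length lay outside the promoter, where Klf2 had 14.1 and 17.3 kb in Control, 23.9 and 20.7 kb in KO1 and 31.1 and 31.0 kb in KO2. This part of the locus includes bases of the neighbouring gene Eps15l1. The Klf2 promoter window itself was 85.1% and 87.4% covered in Control, 87.3% in both KO1 libraries, and 90.6% and 92.0% in KO2. That window, which was near full coverage in each genotype, did not pass the test in either line.

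At Klf4, KO1 did not separate from Control over the locus, and KO2 did. The Klf4 locus (chromosome 4, 55467137 to 55592475) had 12.6 and 11.9 kb of H3K27ac in Control, 11.99 and 12.4 kb in KO1 and 19.1 kb in both KO2 libraries. The KO1 libraries overlapped Control, while the KO2 libraries lay above it by 0.62 ± 0.09 on the log2 scale (adjusted p = 2.42e-05). This was below the median of all genes by 0.62, and after quantile normalization Klf4 was called lower (-0.51). The promoter behaved otherwise. H3K27ac covered 42.9% and 40.6% of the promoter window, which reaches 2 kb to either side of the start, in Control, 29.2% and 34.8% in KO1, while KO2 had 90.2% and 93.1%. The KO2 rise was 49.9 ± 4.2 points (adjusted p = 0.00012), and 23.4 points after quantile normalization, where it was still called. Both KO1 libraries lay below both Control libraries, by 9.77 ± 4.19 points, which did not pass the threshold (adjusted p = 0.295). Most of the H3K27ac at Klf4 lay far downstream: the strongest peak of each library in the locus was between positions 55475669 and 55480596, and the stretch 55477599-55482212 was 83.5% to 97.8% covered in all 6 libraries.

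At Klf5 the KO1 libraries overlapped Control for H3K27ac, and KO2 was higher. Its locus (chromosome 14, 99238691 to 99373412) had 11.998 and 11.2 kb in Control, 13.8 and 10.97 kb in KO1, and 23.8 and 23.9 kb in KO2. The KO1 libraries overlapped Control (log2 difference 0.08 ± 0.11, adjusted p = 0.552), and the KO2 difference was 1.01 ± 0.11 (adjusted p = 2.47e-06), which fell to -0.07 after quantile normalization. In the promoter window, coverage was 30.2% and 39.1% in Control, 26.6% and 25.3% in KO1, compared with 75.4% and 61.3% in KO2. The KO2 libraries stood apart by 33.7 ± 5.6 points (adjusted p = 0.000942), against 5.87 points after quantile normalization, which did not pass.

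Of the nuclear receptor genes, Esrrb was the one with less H3K27ac in KO1 than in Control and more in KO2. The Esrrb locus (chromosome 12, 86301117 to 86581628) had 24.5 and 23.0 kb in Control, 21.9 and 18.1 kb in KO1, and 43.9 and 43.3 kb in KO2. The 3 genotypes did not overlap. KO1 was lower by 0.25 ± 0.09 on the log2 scale (adjusted p = 0.0421). This lay 0.56 below the median of all genes, and the call held after quantile normalization (-0.43). It ended without either Control library (-0.20 and -0.30), without KO1 replicate 2 (-0.12), and without either KO2 library (-0.25), whose removal leaves fewer libraries to estimate the spread. It also ended with a pseudocount of 100 bp, without the filter, with a 20 kb flank and with peaks of −log10 q of at least 5, so that 7 of 16 alternatives gave the same call. In KO2 Esrrb was higher by 0.86 ± 0.09 (adjusted p = 1.66e-06), against -0.05 after quantile normalization. All of the Control and KO1 H3K27ac at Esrrb lay in the gene body. The RefSeq start at position 86421644 had no H3K27ac within 2 kb in any library. The window of the same size with the most H3K4me3 in the gene body lay 50.6 kb from that start, and its H3K27ac coverage was 56.6% and 53.7% in Control, 69.1% and 46.9% in KO1, compared with 96.8% and 91.7% in KO2. This window, a choice made after seeing the data, was higher in KO2 by 39.1 ± 7.0 points (adjusted p = 0.00162).

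Nr5a2 had the least H3K27ac of the 9 loci and one of the greatest relative differences. Its locus (chromosome 1, 136782562 to 137020448) had 2.08 and 2.44 kb in Control, 3.81 and 3.04 kb in KO1, and 8.24 and 6.88 kb in KO2. Neither line overlapped Control. KO1 was higher by 0.50 ± 0.16 (adjusted p = 0.0275) and KO2 by 1.54 ± 0.16 (adjusted p = 1.88e-06) on the log2 scale. After quantile normalization the differences were 0.16 and 0.22, and neither passed. The KO1 call also ended without Control replicate 1 (0.41), KO1 replicate 1 (0.36) or either KO2 library (0.50). In Control all Nr5a2 H3K27ac lay in the promoter window. Outside it there was none in either Control library, 1.12 and 0.894 kb in KO1, and 4.77 and 3.77 kb in KO2. Promoter coverage was 51.9% and 61.1% in Control, 67.2% and 53.7% in KO1, compared with 86.6% and 77.7% in KO2. The KO2 rise of 25.7 ± 6.0 points (adjusted p = 0.00424) became -2.87 after quantile normalization, and without KO2 replicate 1 the call ended (21.2).

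Tfcp2l1 had more H3K27ac in both lines. The locus (chromosome 1, 118567923 to 118745168) had 11.9 and 11.03 kb in Control, 15.0 and 13.7 kb in KO1, and 25.1 and 23.7 kb in KO2. No line overlapped Control. The log2 difference was 0.31 ± 0.09 in KO1 (adjusted p = 0.0196) (0.31 for the median of all genes), and 1.06 ± 0.09 in KO2 (adjusted p = 4.55e-07). After quantile normalization these were 0.08 and -0.03, and neither passed. The KO1 call ended without Control replicate 2 (0.26) or KO1 replicate 1 (0.25). The Tfcp2l1 promoter window was 36.8% and 39.3% covered in Control, 64.0% and 48.6% in KO1, while KO2 had 83.5% and 92.1%. The libraries of KO1 lay between those of the other 2 genotypes, by 18.2 ± 5.8 points above Control, without passing (adjusted p = 0.19). KO2 was higher by 49.7 ± 5.8 points (adjusted p = 0.000267) and by 22.4 after quantile normalization, which still passed.

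**Figure D3:**
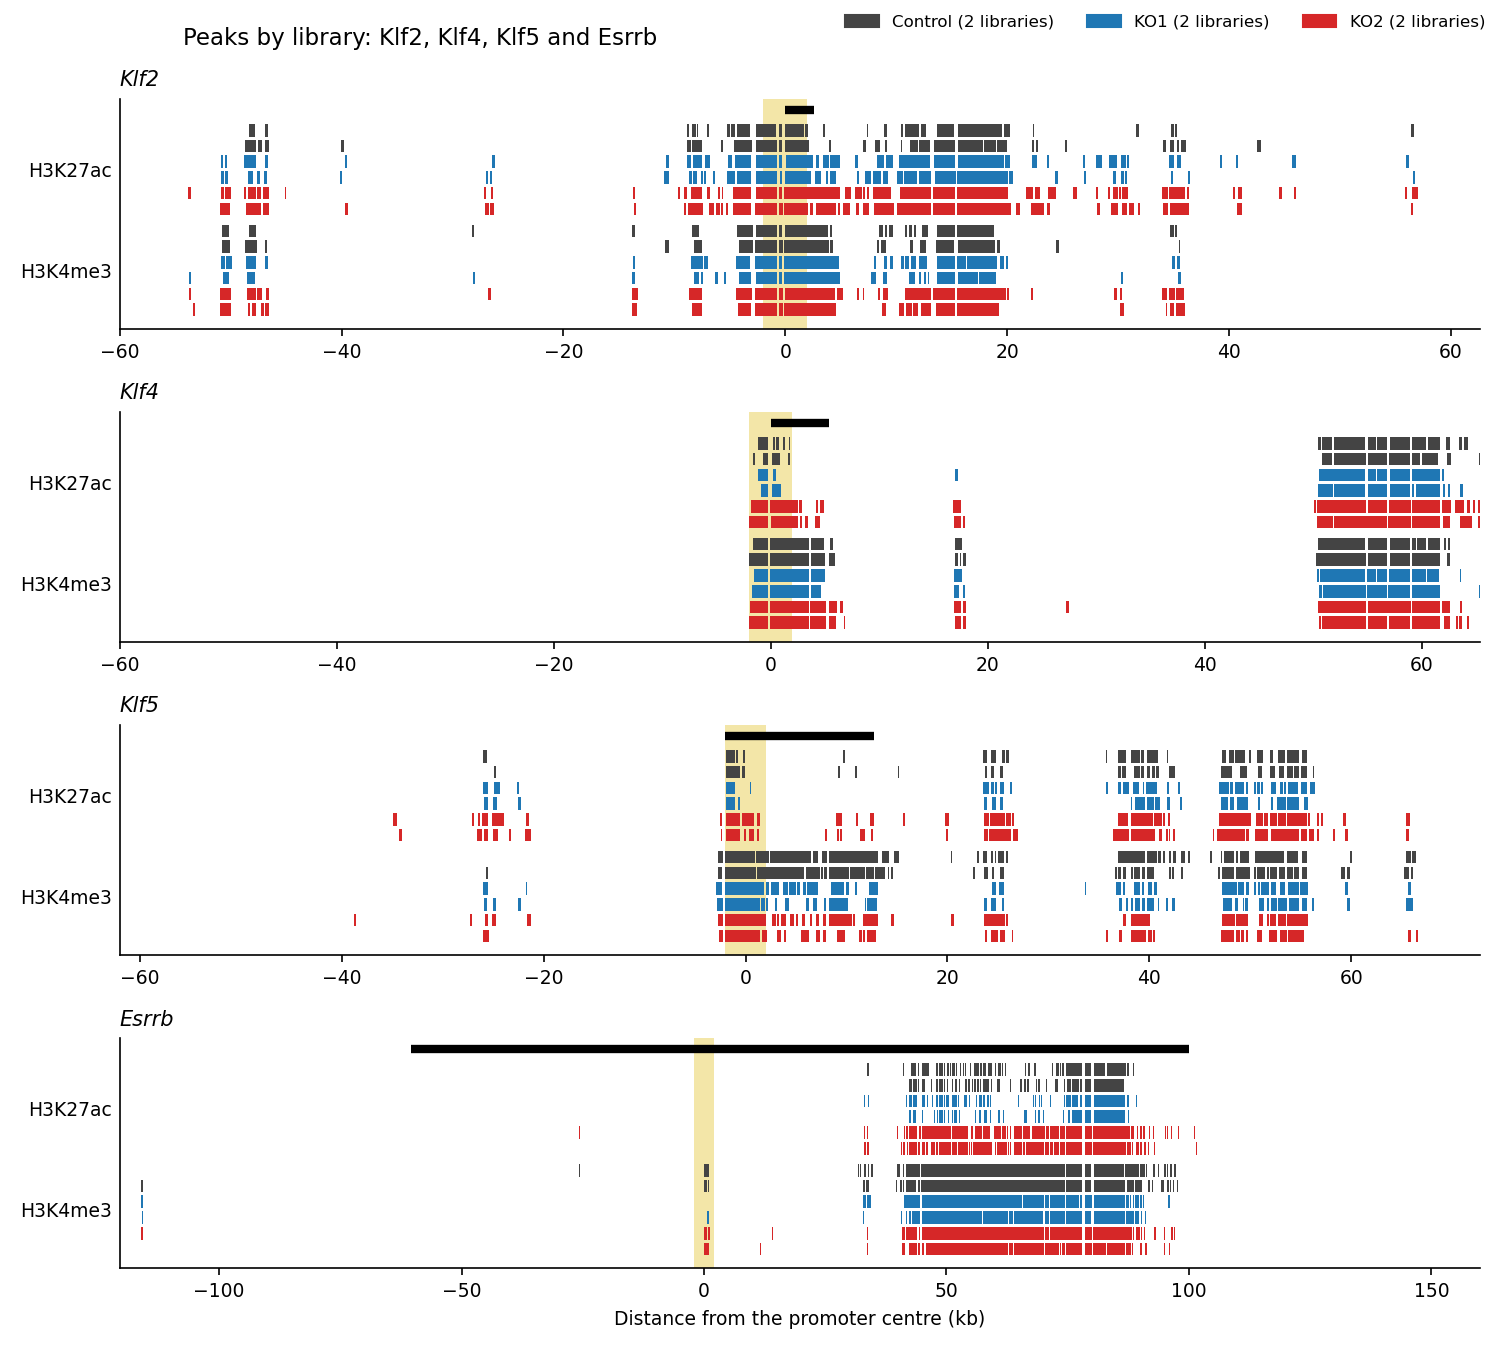
Peaks of each library along the Klf2, Klf4, Klf5 and Esrrb loci, in kb from the centre of the promoter window (shaded), with 1 row per library and mark and the gene body as a black bar. The H3K27ac of Esrrb lies inside the gene, 24.5 and 23.0 kb in Control against 43.9 and 43.3 kb in KO2, and that of Klf4 lies mostly downstream of the gene.

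Tbx3 had the largest H3K27ac difference of the 9 loci in KO2. The Tbx3 locus (chromosome 5, 119610534 to 119744724) had 10.7 kb of H3K27ac in both Control libraries, 14.0 and 12.6 kb in KO1, and 36.2 and 36.3 kb in KO2. KO2 lay far above every other library. The KO2 difference was 1.71 ± 0.08 on the log2 scale (adjusted p = 4.03e-08), which is 0.46 above the median of all genes and was called higher under each of the 16 alternatives run for it, quantile normalization included (0.68). KO1 was higher by 0.30 ± 0.08 (adjusted p = 0.0172), near the median, and by 0.05 after quantile normalization, without passing. That KO1 call ended without either Control library (0.30) or KO1 replicate 1 (0.23). Most of the added length lay outside the promoter, where Tbx3 had 8.35 and 8.56 kb in Control, 11.6 and 10.4 kb in KO1, and 32.3 kb in both KO2 libraries. The Tbx3 promoter window was 59.2% and 54.1% covered in Control, 61.0% and 55.3% in KO1, while KO2 had 99.1% and 99.4%. Its KO2 rise was 42.6 ± 4.1 points (adjusted p = 0.000156), and 21.8 points after quantile normalization, which passed.

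At Prdm14 the promoter window went from no H3K27ac to partial coverage. The window held no H3K27ac peak in either Control library, 0% and 3.75% in KO1, and 52.4% and 51.2% in KO2. KO2 was higher by 51.8 ± 3.0 points (adjusted p = 9.58e-05), and by 30.6 after quantile normalization, which passed. No fold change is given because both Control libraries were at 0. The Prdm14 locus (chromosome 1, 13053428 to 13187163) had 6.12 and 7.90 kb in Control, 11.8 and 7.55 kb in KO1, and 17.8 and 18.0 kb in KO2. KO1 overlapped Control (log2 difference 0.41 ± 0.17, adjusted p = 0.0804). Single libraries moved that value: it was called without KO1 replicate 2 (0.72) or Control replicate 2 (0.58), and was 0.11 without KO1 replicate 1 and 0.24 without Control replicate 1. The KO2 libraries did not overlap Control (1.30 ± 0.17, adjusted p = 1.49e-05), and KO2 was 0.08 higher after quantile normalization, without passing. All of the Control H3K27ac was outside the promoter window and gene body, in a window that also reaches Ncoa2, the neighbouring protein-coding gene.

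Zfp42 was the gene with the lowest H3K27ac ratio of KO1 to Control, 0.767. The Zfp42 locus (chromosome 8, 43235067 to 43367009) had 5.77 and 7.36 kb in Control, 4.77 and 5.31 kb in KO1, and 10.1 and 10.4 kb in KO2. Both KO1 libraries lay below both Control libraries, by 0.34 ± 0.13 on the log2 scale, which missed the threshold (adjusted p = 0.0631). It was called without Control replicate 1 (-0.51) and was -0.18 without Control replicate 2. After quantile normalization the KO1 difference was -0.65 and was called, while after subtracting chromosome medians it was not called. KO2 was higher by 0.61 ± 0.13 (adjusted p = 0.0008), 0.64 below the median of all genes, and after quantile normalization it was called lower (-0.67). The promoter window was 63.9% and 79.0% covered in Control, 60.3% and 60.6% in KO1, while KO2 had 78.9% and 85.3%. KO2 overlapped Control there, and neither line passed. The KO2 difference of 10.6 points was called without Control replicate 2 (18.2) and was 3.09 without Control replicate 1. KO2 exceeded KO1 by 21.7 ± 5.5 points (adjusted p = 0.00854).

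**Figure D4:**
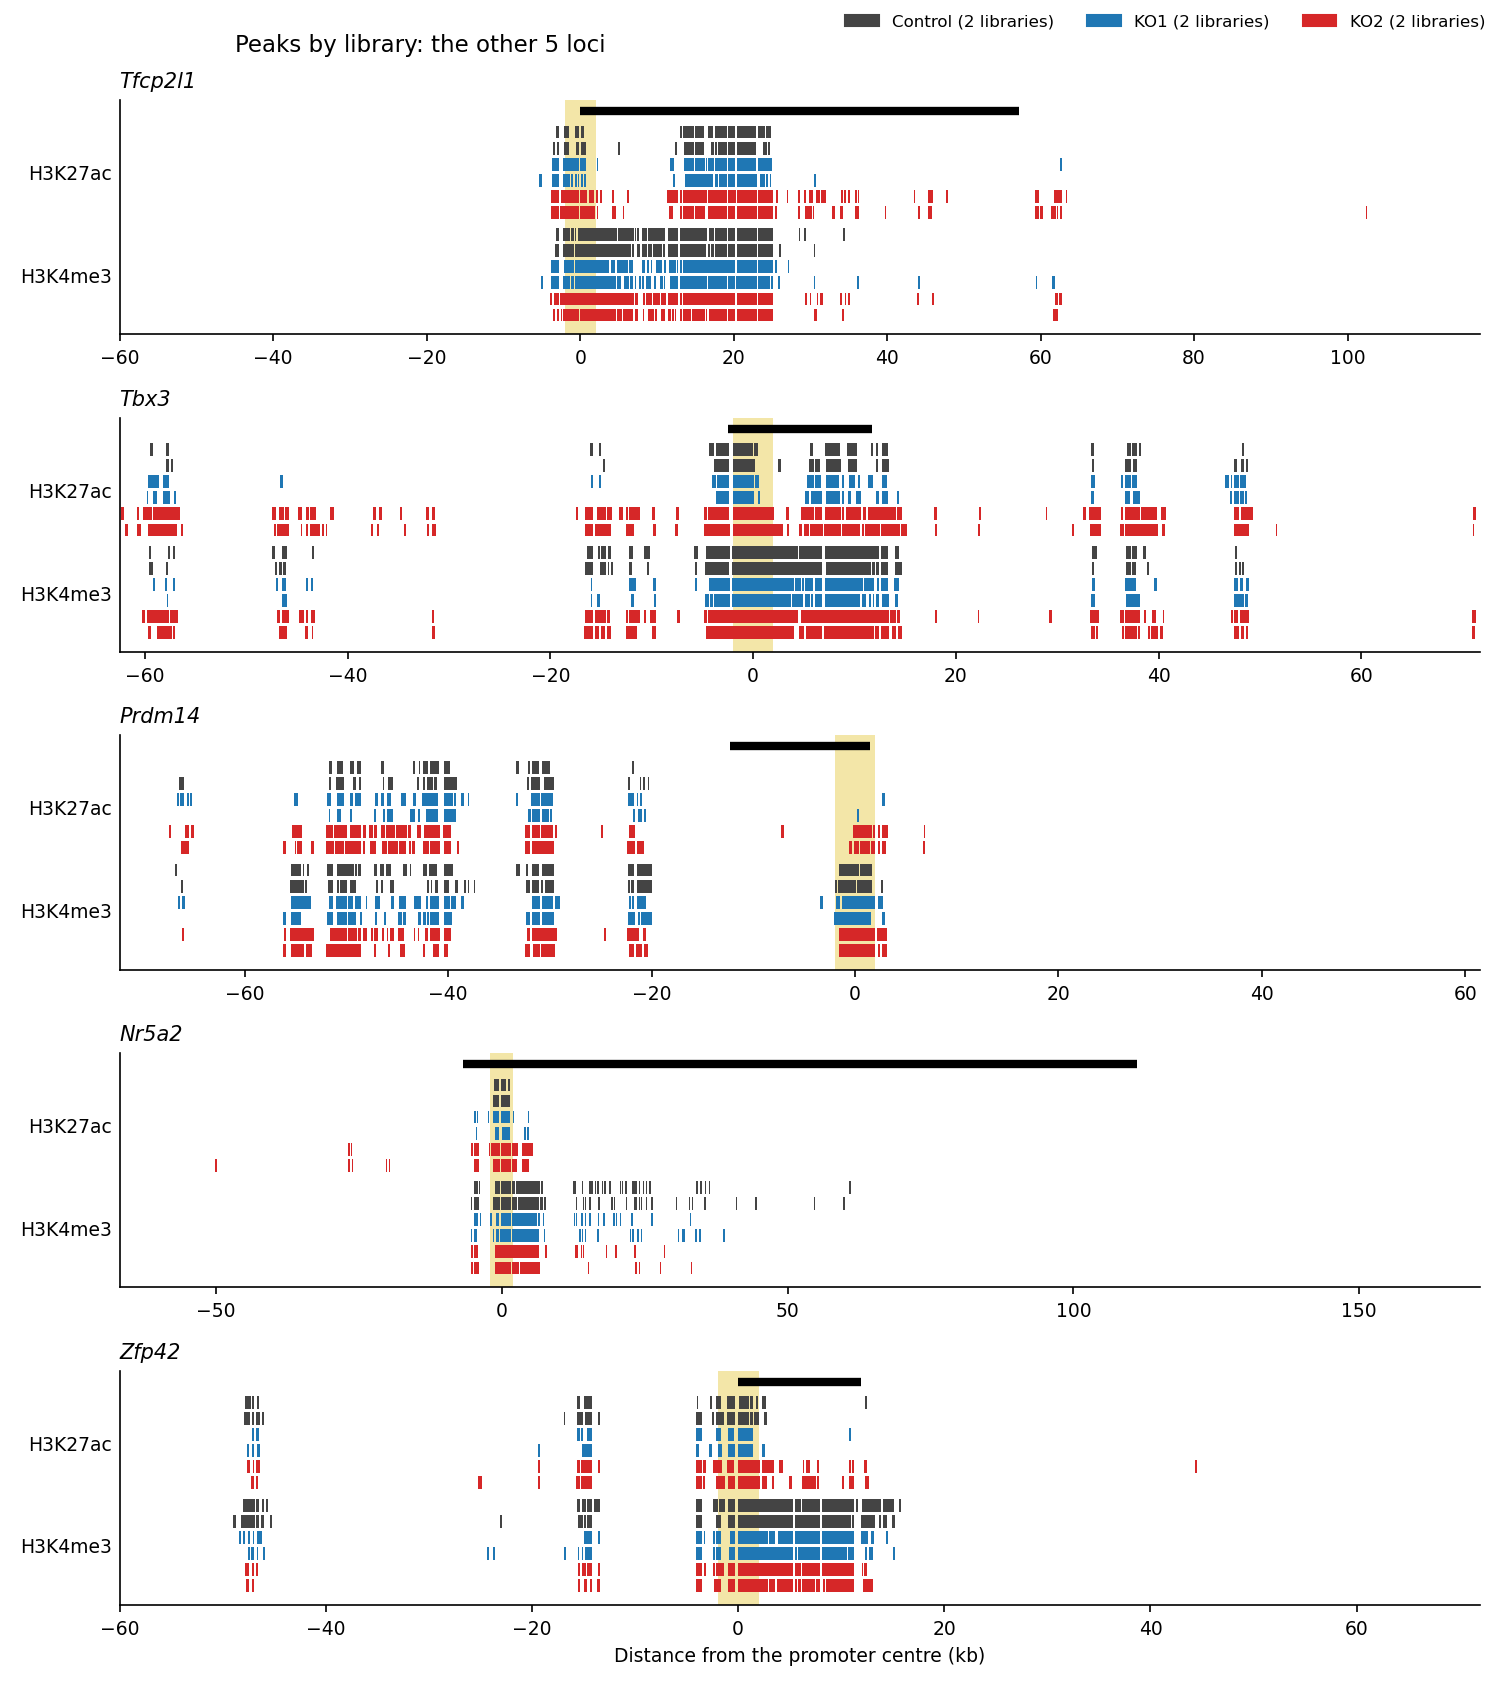
Peaks of each library along the Tfcp2l1, Tbx3, Prdm14, Nr5a2 and Zfp42 loci, in kb from the centre of the promoter window (shaded), with 1 row per library and mark and the gene body as a black bar. At Tbx3 the KO2 libraries hold 36.2 and 36.3 kb of H3K27ac, spread beyond the gene, and at Prdm14 the promoter holds H3K27ac in both KO2 libraries and in KO1 replicate 2.

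The promoter windows were called higher for H3K27ac at most of these genes in KO2. In KO2, 6 of the 8 genes tested (Klf4, Klf5, Tfcp2l1, Tbx3, Prdm14 and Nr5a2) were called higher for H3K27ac, with 88.2% of all genes called higher; 0.0741% were called lower. Esrrb had no peak in its window and was not tested. The median difference of the 8 genes was 38.1 points, against 17.9 for all 9448 genes tested. After quantile normalization 4 of the 8 were higher and Klf2 was lower, with 6.99% and 5.78% of all genes. Before it, the Klf2 window was 85.1% and 87.4% covered in Control and 90.6% and 92.0% in KO2. So near full coverage, it had little room for a rise shared by all genes. In KO1 the count called was 0 of 8 by limma, with 0.0847% of all genes called higher. At an unadjusted p under 0.05 there were 2 of the 8, and 1576 of all 9448. KO2 exceeded KO1 at 7 of 8 promoters, all but Klf2, with 76% of all genes called higher.

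**Figure D5:**
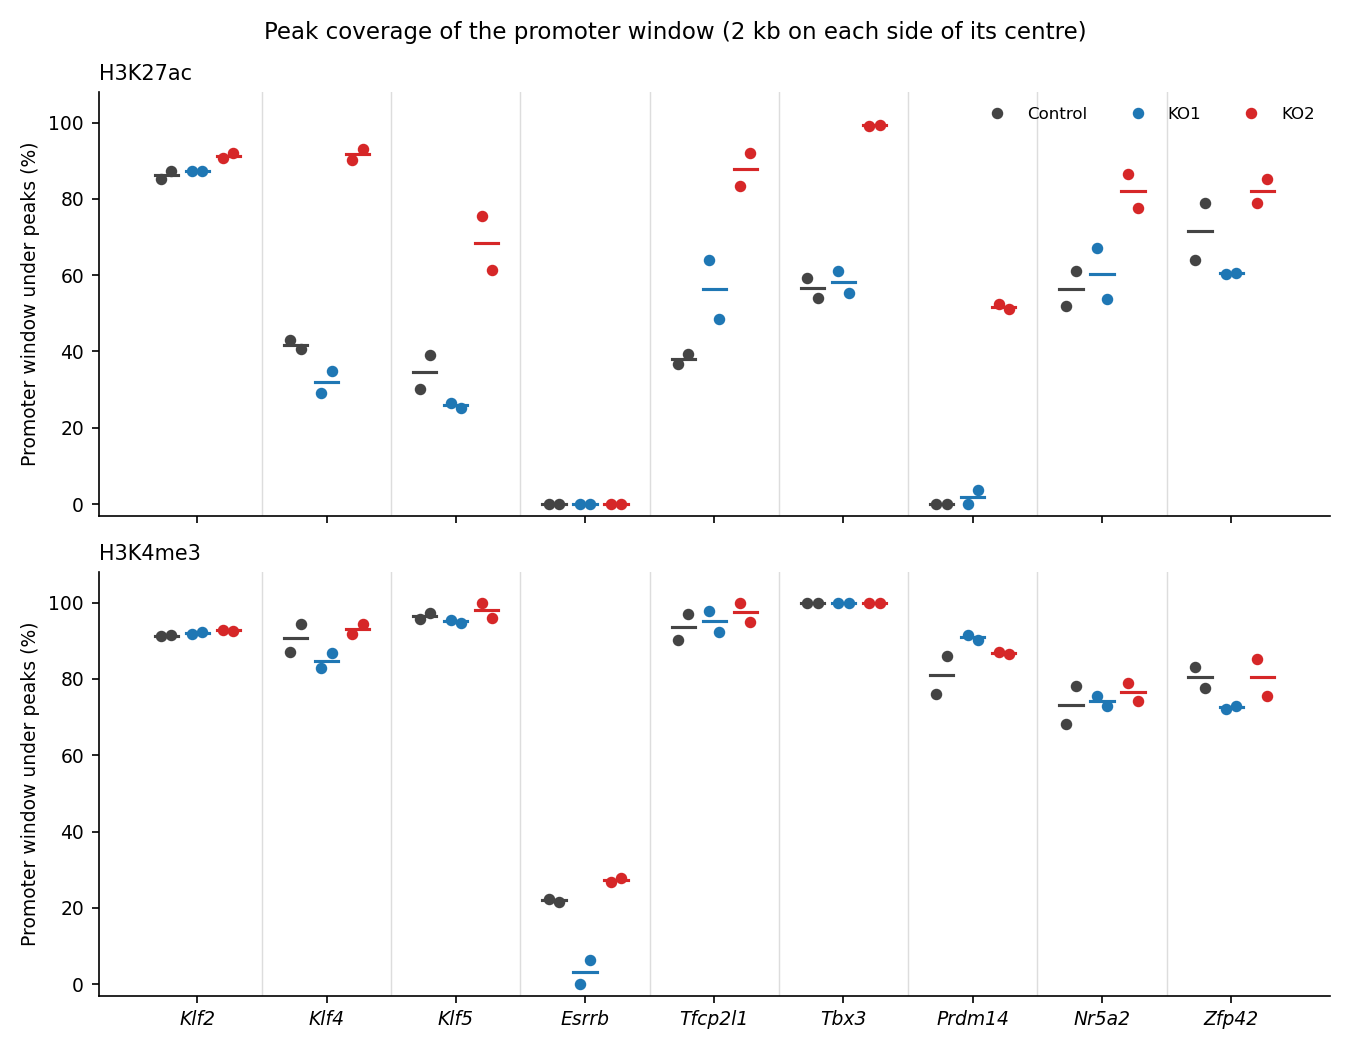
Percent of the promoter window (2 kb to either side of its centre) under H3K27ac and H3K4me3 peaks for each gene, with 1 point per library and bars at the means of the genotypes. The KO2 points for H3K27ac at Klf4, Tfcp2l1, Tbx3 and Prdm14 stand well above Control, at Prdm14 52.4% and 51.2% against 0%. H3K4me3 is at 68.3% or more in each library at each gene but Esrrb. The windows of Klf5, Tbx3 and Prdm14 were chosen as those with the most H3K4me3 in the gene.

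Without rescaling, fewer loci were called for H3K4me3 than for H3K27ac, and in both directions. In KO1, 1 of 9 loci passed, Klf5 with less H3K4me3, while 30% of all genes were called lower and 2.76% higher. In KO2, 2 of 9 loci were called higher (Klf2 and Tbx3) and 3 lower (Klf5, Nr5a2 and Zfp42), with 6.46% and 37.1% of all genes. The medians of the 9 genes were -0.13 in KO1 and 0.08 in KO2, above the medians of all 16090 genes tested, -0.21 and -0.22. These directions depend on the scaling. After quantile normalization 5 genes were higher in KO1 (Klf2, Klf4, Tfcp2l1, Tbx3 and Prdm14), 6 were higher in KO2 (these and Esrrb), and none was lower in either line, more than the 3 called for H3K27ac in each line. Of all genes 13.7% were then called higher and 12.3% lower in KO1, and 21.5% and 19.9% in KO2. KO2 exceeded KO1 at 1 of 9 loci, Tbx3, with 6.22% of all genes called higher.

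Klf5 was called lower for H3K4me3 in both lines. Its locus had 30.9 and 28.6 kb in Control, 22.2 and 19.6 kb in KO1, and 24.0 and 19.4 kb in KO2, with no overlap between Control and either line. The log2 differences were -0.50 ± 0.12 (adjusted p = 0.00468) and -0.45 ± 0.12 (adjusted p = 0.00597). After quantile normalization they were -0.18 and -0.11 and did not pass. Without Control replicate 1 both calls ended (-0.44 and -0.40), and without KO1 replicate 2 the KO1 call ended (-0.41). Within the Klf5 gene body H3K4me3 covered 13.6 and 13.7 kb in Control, 9.91 and 8.09 kb in KO1, and 10.2 and 7.96 kb in KO2. The promoter window stayed between 94.6% and 100% covered in the 6 libraries. That window was chosen as the one in the gene with the most H3K4me3, which favours high coverage. At the end of the gene away from that window, the stretch chr14:99308931-99314945 was 93.5% and 88.1% covered in Control, 44.7% and 49.4% in KO1, while KO2 had 65.1% and 36.2%.

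Nr5a2 had 14.8 and 14.9 kb of H3K4me3 in Control, 12.2 and 12.03 kb in KO1, and 11.01 and 9.51 kb in KO2. Both lines lay below Control. The KO2 difference of -0.52 ± 0.12 passed (adjusted p = 0.00167) and the KO1 difference of -0.28 ± 0.12 did not (adjusted p = 0.0738). After quantile normalization the KO2 difference was -0.18 and did not pass. Control had 28 and 29 separate H3K4me3 peaks at Nr5a2, KO1 had 24 and 20, and KO2 had 11 and 12. The whole H3K4me3 lists also held fewer peaks in KO2 (72303 and 66483) than in Control (83644 and 81608). In KO2 this gene thus had fewer H3K4me3 peaks and more H3K27ac length, but neither locus difference passed after quantile normalization. Zfp42, the other gene with less H3K4me3 in KO2, had 19.7 and 18.5 kb in Control, 15.6 and 15.5 kb in KO1, and 15.7 and 14.4 kb in KO2. Its KO2 difference was -0.34 ± 0.12 (adjusted p = 0.0215). It was 0.0059 after quantile normalization, and became 0.20, called higher, when the median of chromosome 8 was subtracted. The call also ended without either Control library (-0.29 and -0.38) or either KO1 library (-0.34).

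Tbx3 and Klf2 had more H3K4me3 in KO2. Tbx3 had 23.9 and 23.2 kb in Control, 22.1 and 20.7 kb in KO1, and 34.6 and 29.1 kb in KO2. The KO1 libraries lay below Control and the KO2 libraries above it. The KO2 difference was 0.42 ± 0.12 (adjusted p = 0.00638), 0.76 after quantile normalization, and KO2 exceeded KO1 by 0.56 ± 0.12 (adjusted p = 0.00336). The first call ended without either Control library (0.45 and 0.40) and the other without KO1 replicate 2 (0.51). The Tbx3 promoter window was fully covered in all 6 libraries, so the difference lay outside it. The window was chosen as the one in the gene with the most H3K4me3, which favours full coverage. Klf2 had 17.6 and 18.0 kb in Control, 20.9 and 18.6 kb in KO1, and 25.9 and 21.7 kb in KO2. Its KO2 difference was 0.40 ± 0.12 (adjusted p = 0.0105) and 0.74 after quantile normalization. It ended without either Control library (0.38 and 0.42) and turned to -0.15 when the flank was 100 kb.

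The 4 other genes did not pass for H3K4me3 locus length. Esrrb had the greatest H3K4me3 length of all 9 genes, 52.8 and 52.4 kb in Control, 47.3 and 45.6 kb in KO1, and 49.7 and 46.2 kb in KO2. Klf4 ranged from 17.2 to 20.8 kb, Tfcp2l1 from 24.3 to 29.6 kb and Prdm14 from 14.1 to 18.9 kb over the 6 libraries. In the promoter windows, H3K4me3 was called lower at 1 of 8 genes in KO1, with 1.64% of all genes, and at none in KO2, where none of the 8 reached an unadjusted p under 0.05 and 6.05% of all genes were called lower and 1.35% higher. The gene called was Esrrb, whose start had 22.4% and 21.7% coverage in Control, 0% and 6.45% in KO1, while KO2 had 26.7% and 27.8%. The window with the most H3K4me3 in this gene, 50.6 kb from that start, was 100% covered in all 6 libraries. The KO1 difference was -18.8 ± 2.9 points (adjusted p = 0.0335), and KO2 exceeded KO1 by 24.0 ± 2.9 points (adjusted p = 0.0197), with 0.496% of all genes called higher. After quantile normalization these were -17.6 and 23.3 points, both called, and the medians of all genes were -2.25 in KO1 and -2.39 in KO2 before it. Both calls ended when any 1 of the 6 libraries was left out, where the differences ran from -22.0 to -15.6 and from 20.8 to 27.2. Fewer of all genes were also called in each of these fits, so the ended calls are not particular to Esrrb.

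Peaks were next merged over the 6 libraries of a mark into regions, to see where the loci gained or lost them. The 9 loci had 296 H3K27ac regions, of which 81 had a peak in both Control libraries, 89 in both KO1 libraries and 177 in both KO2 libraries. In KO2, 76 of the 177 regions (42.9%) had no peak in either Control library, against 44.3% over the whole genome, and 0 of the 81 Control regions were without a KO2 peak, against 2.16%. In KO1, 15 of 89 (16.9%) had no Control peak, against 15.5%, and 1 of 81 was lost, against 3.52%. The member shares were thus near those of the genome in each case. By gene, Tbx3 had 17 of the 76 regions found in KO2 and not in Control, Klf2 12, Tfcp2l1 10, Klf5 9, Prdm14 8, Esrrb 7, Nr5a2 5, Zfp42 5 and Klf4 3. In KO1, Klf2 had 8 of the 15, Nr5a2 3, Klf5 2, and Tbx3 and Prdm14 1 each. The 1 region lost in KO1 was at Esrrb. With each list held to the same number of peaks, the counts found in KO2 and in KO1 and not in Control were 13 and 3. The genome shares under that setting were not computed, so these counts cannot be set against the genome.

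For H3K4me3 the 9 loci had 269 regions, with 99 in both Control libraries, 85 in both KO1 libraries and 107 in both KO2 libraries. KO1 had 2 regions with no Control peak (genome share 6.3%) and lacked 10 Control regions (genome share 16.6%). KO2 had 12 with no Control peak (11.2%, against 11.1% over the genome) and lacked 9 (9.09%, against 19.8%). Tbx3 held 6 of the 12 regions found in KO2 and not in Control. Nr5a2 held 4 of the 9 that KO2 lacked and Klf5 3, and of the 10 that KO1 lacked Nr5a2 held 3 and Klf4, Klf5 and Esrrb 2 each.

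Each of these loci held broad H3K4me3, and the H3K27ac within it was more extensive in KO2 than in Control. Merged H3K4me3 regions of at least 3 kb, a minimum chosen after seeing the data, numbered 21 and fell in each of the 9 loci. The share of all gene loci that hold such a stretch was not computed, so holding one is not shown to be particular to these genes. H3K27ac covered a median of 43.6% and 41.9% of such a stretch in Control, 47.3% and 32.2% in KO1, while KO2 had 79.4% and 84.2%. Both KO2 libraries lay above both Control libraries in 20 of the 21 stretches, with 86.4% of 4559 stretches over the genome. KO1 lay above Control in 6 and below in 5, with 30.3% and 9.39% over the genome. For H3K4me3, KO1 lay below Control in 14 and above in 4 (67.4% and 6.38% over the genome), and KO2 below in 9 and above in 6 (73.1% and 7.83%).

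The longest of these stretches was in Esrrb, chr12:86466475-86499609, 33.1 kb long and 94.2% to 99.6% covered by H3K4me3 in all libraries. H3K27ac covered 44.4% and 41.8% of it in Control, 35.5% and 27.2% in KO1, while KO2 had 84.3% and 84.2%. KO1 was thus the lowest and KO2 the highest over a stretch whose H3K4me3 was close to complete. The next in Tbx3, chr5:119668229-119686439 (18.2 kb), had 44.0% and 44.6% in Control, 47.3% and 45.0% in KO1, compared with 78.9% and 84.7% in KO2. The stretch at the Prdm14 promoter, chr1:13123687-13127673, was 76.4% to 91.9% covered by H3K4me3 in the 6 libraries, and its H3K27ac was that of the promoter window above. At Nr5a2, chr1:136946246-136955148 had 23.3% and 27.5% H3K27ac in Control, 35.2% and 32.2% in KO1, while KO2 had 66.6% and 56.4%. The Klf4 promoter stretch, chr4:55528904-55532512, had 23.1% and 27.1% in Control, 7.12% and 21.9% in KO1, compared with 76.9% and 84.2% in KO2. The 1 stretch without H3K27ac in any library was inside Tfcp2l1, chr1:118635948-118639106.

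Other genes of the pathway were read from lists of the wider naive network, the other Klf genes and the formative and primed genes. Of 29 wider naive network genes tested for H3K27ac locus length, 14 were called higher in KO1 (34.6% of all genes) and 29 in KO2 (95.6%), with a KO2 median of 1.17 against 1.25 for all genes. After quantile normalization 8 were higher and 10 lower in KO2, with 21.7% and 23.8% of all genes. Socs3, the feedback inhibitor of LIF signalling, had log2 differences of 0.76 ± 0.11 (adjusted p = 0.000629) in KO1 and 2.61 ± 0.11 (adjusted p = 4.03e-08) in KO2. Of 30 such promoters, 29 were called higher in KO2 (88.2% of all) and 1 in KO1 (0.0847%). For H3K4me3 locus length, 6 of 30 were lower in KO1 (30% of all genes), and 6 were lower and 1 higher in KO2 (37.1% and 6.46%); Stat3 was lower in both lines (-0.77 ± 0.13 and -0.69 ± 0.13, adjusted p = 0.000194 and 0.000287), and Dppa3 was the higher one (0.44 ± 0.12, adjusted p = 0.00531). Of 12 other Klf genes, 3 were higher and 2 lower in KO1 for H3K27ac (34.6% and 1.11% of all genes), and 10 were higher in KO2 (95.6%). The 2 lower in KO1 were Klf12 (-1.27 ± 0.23, adjusted p = 0.00197) and Klf6 (-1.17 ± 0.21, adjusted p = 0.00167). Klf15 was higher in both lines (0.92 ± 0.18 and 2.72 ± 0.18, adjusted p = 0.00255 and 9.05e-08). For H3K4me3, 7 of 13 other Klf genes were lower in KO1, and 5 lower and 1 higher in KO2, against the same shares of all genes as above. Klf12 differed most in both lines (-1.86 ± 0.13 and -1.90 ± 0.13, limma adjusted p = 6.54e-09 and 3.01e-09). Of 17 formative and primed genes, which mark the exit from the naive state, 8 were higher in KO1 and 16 in KO2 for H3K27ac locus length (34.6% and 95.6% of all genes), with a KO2 median of 1.61. After quantile normalization 5 were higher and 5 lower in KO2, with 21.7% and 23.8% of all genes. Lef1 (2.24 ± 0.27, adjusted p = 0.000216) and Otx2 (1.32 ± 0.17, adjusted p = 0.000315) differed most in KO1. For H3K4me3 locus length 5 of 20 were lower and 1 higher in KO1 (30% and 2.76% of all genes), and 9 lower and 1 higher in KO2 (37.1% and 6.46%).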

How the data were processed

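Per the submitters' processing notes, the tools were CASAVA, Trimmomatic 0.38, Bowtie 1.2.2 and MACS2 (version not given in the sources used here), and the build was mm10. The authors deposited 1 peak list for each of the 12 immunoprecipitated libraries (antibodies against H3K27ac and H3K4me3), each with a fold enrichment (a ratio) per peak. The deposited lists also hold a −log10 p and a −log10 q per peak, whose lowest −log10 q was 2.0007. Per the labels' protocols, spike-in chromatin was present, without a statement on whether it or the 6 input samples (not analysed here) entered the calling. The fold and p of a peak were used only to name the strongest peak within a list.

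From the lists the length under peaks was computed in each protein-coding gene body with 60 kb on each side, as log2(bp + 500), a scale that understates the change of low values, keeping genes whose mean reached 1000 bp. The share of a promoter window (2 kb on each side of its centre) under peaks was computed where its mean reached 5% and its values were not identical. Windows were centred on the RefSeq start for 17491 genes, 6 of the 9 included. For 4392 genes without one (Klf5, Tbx3 and Prdm14 included) the window in the gene with the most H3K4me3 was used, and where RefSeq gave 2 starts, the one with more H3K4me3, a choice made after seeing the data. Neighbouring genes share windows and are not independent. limma 3.58.1 in R 4.3.3 (lmFit, eBayes with a trend) was fitted over the 6 libraries of a mark for KO1 minus Control, KO2 minus Control (which share the Control libraries) and KO2 minus KO1, with Benjamini-Hochberg adjustment over all genes tested and a threshold of 0.05. The fits were tested on simulated data. Each missed a part of the changes put in, and that of H3K4me3 promoter coverage missed all of them. Few genes were changed in the simulation, on an otherwise unchanged background. In the data that last fit called 182 genes higher and 818 lower in KO2. The simulation therefore does not measure the share missed here. Few calls still do not show an absence of change.

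Regions were peaks of the 6 libraries merged where they touch. A region counted for a genotype where both its libraries had a peak in it. All 9 genes were named in each comparison, and from each other list at most 3 genes per comparison, those with the largest difference among genes called. The 9 genes and the lists were chosen with earlier results of these data known, so no pattern here is independent support for another. Alternatives were other pseudocounts, filters, flanks and windows, quantile normalization, chromosome medians subtracted, stricter or equally long peak lists, a replicate block and leaving out each library. Figures were drawn with matplotlib 3.10.9 under Python 3.11.15.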

Additional observations from a re-analysis of the deposited data

Results flagged for a closer look

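The results below are those where KO1 and KO2 differed from each other by limma (KO2 minus KO1, adjusted p under 0.05), so that the difference from Control was not the same in both lines. No explanation was tested. Of all genes tested, 90.3% were called higher in KO2 than in KO1 for H3K27ac locus length, and 76% for H3K27ac promoter coverage. For H3K4me3 the shares called higher were 6.22% (locus length) and 0.496% (promoter coverage). Passing for H3K27ac is thus not particular to these genes. For H3K27ac locus length the log2 difference between the lines was 0.42 at Klf2, 0.63 at Klf4, 0.93 at Klf5, 1.11 at Esrrb, 0.75 at Tfcp2l1, 1.41 at Tbx3, 0.89 at Prdm14, 1.04 at Nr5a2 and 0.96 at Zfp42, against a median of 0.92 for all genes tested. Esrrb and Tbx3 stayed higher in KO2 than in KO1 after quantile normalization (0.38 and 0.62), and Klf2 and Klf4 were then lower (-0.37 and -0.27), with 16.0% of all genes called higher and 17.5% lower.

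For H3K27ac promoter coverage KO2 exceeded KO1 by 59.7 points at Klf4, 42.4 at Klf5, 31.4 at Tfcp2l1, 41.1 at Tbx3, 49.9 at Prdm14, 21.7 at Nr5a2 and 21.7 at Zfp42, against a median of 14.6 for all genes tested. After quantile normalization Klf4, Tbx3 and Prdm14 were still called higher, with 4.15% of all genes. The Nr5a2 call ended without KO1 replicate 2 (15.0) or KO2 replicate 1 (17.3), and the Zfp42 call ended without KO1 replicate 1 (21.5), KO1 replicate 2 (21.8) or KO2 replicate 2 (18.4). For H3K4me3, KO2 exceeded KO1 by 0.56 on the log2 scale at the Tbx3 locus and by 24.0 points at the Esrrb promoter, which was 0% and 6.45% covered in KO1 and 26.7% and 27.8% in KO2. The Tbx3 call ended without KO1 replicate 2 (0.51, adjusted p = 0.0747). The Esrrb call ended without any 1 of the 6 libraries, with values of 20.8 to 27.2 points. Fewer of all genes were also called in each of those fits.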

How the results depend on the processing

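The cause of each change below was not tested. Of the 9 genes, H3K27ac locus length was called different from Control at 5 in KO1 and 9 in KO2. These became 3 (1 higher, 2 lower) and 3 (1 higher, 2 lower) after quantile normalization, which removes a shift shared by all genes. They became 2 (1 higher, 1 lower) and 6 (1 higher, 5 lower) with chromosome medians subtracted. Of all 12893 genes, 1197 were higher and 977 lower in KO1 after quantile normalization, and 2794 and 3065 in KO2. With chromosome medians these were 897 and 863 in KO1, and 2446 and 3198 in KO2. The KO1 count was 2 with equal numbers of peaks, 3 with a 20 kb flank, 3 with no filter and 1 at a −log10 q of at least 5. Over all genes, 1635 were higher and 169 lower of 11866 with equal peaks, and 2136 and 94 of 8905 with the 20 kb flank. With no filter they were 4151 and 124 of 17756, and at the stricter q 3602 and 100 of 12362. KO2 minus KO1 went from 9 to 4 (quantile) and 3 (chromosome). Of all 12893 genes 2059 were then higher and 2262 lower (quantile), and 1601 and 2217 (chromosome). For H3K27ac promoter coverage, KO2 minus KO1 went from 7 to 4 with quantile normalization and to 4 with a 1 kb window side. Over all genes, 392 of 9448 were then higher and 124 lower, and 6495 of 9945 higher and 6 lower. For H3K4me3 locus length, KO1 went from 1 to 5 higher (quantile) and to 6 with chromosome medians (5 higher, 1 lower). Of all 16090 genes 2205 were then higher and 1973 lower (quantile), and 2091 and 1918 (chromosome). KO2 went from 5 (2 higher, 3 lower) to 6 higher (quantile) and to 7 with chromosome medians (6 higher, 1 lower). It was 5 (3 higher, 2 lower) with equal peaks, 2 lower with a 20 kb flank and 3 (2 higher, 1 lower) at the stricter q. Of all 16090 genes 3454 were higher and 3205 lower in KO2 (quantile), and 3754 and 3112 (chromosome). With equal peaks they were 1398 and 5097 of 16032. With the 20 kb flank they were 799 and 4356 of 13692, and at the stricter q 929 and 4638 of 15920. KO2 minus KO1 went from 1 to 3 (quantile), 3 (chromosome) and, with a 20 kb flank, 0. Over all genes 2109 were higher and 2036 lower (quantile), 1765 and 1649 (chromosome), and 621 and 542 of 13692 (flank). For H3K4me3 promoter coverage the KO1 count of 1 became 0 with chromosome medians, where 87 of all 13513 genes were higher and 126 lower. The KO2 count of 0 became 1 with chromosome medians, where 583 of all genes were higher and 557 lower. With a 1 kb window side the counts of KO1 and of KO2 minus KO1 became 0, as did those of all 13003 genes. In the window with the most H3K4me3 (chosen after seeing the data) both counts were also 0. Esrrb was not tested there, because its coverage was 100% in all 6 libraries.

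Leaving out 1 library gave 2 to 5, 9 to 9 and 9 to 9 genes for H3K27ac locus length (KO1, KO2, KO2 minus KO1), 0 to 0, 5 to 7 and 5 to 7 for its promoter coverage, 0 to 4, 1 to 7 and 0 to 4 for H3K4me3 locus length, and 0 to 0 in each comparison of its promoter coverage. In these fits the number of all genes called moved as well. Regions with equal peaks, stricter q and merging within 1 kb were 3, 8 and 4 for H3K27ac gained in KO1 (15) and 13, 45 and 30 in KO2 (76). The genome shares of regions under these and the settings below were not computed. Lost H3K27ac regions were 5 with equal peaks, 3 at 50% overlap and 2 at the stricter q in KO1 (1), and 5, 1 and 1 under the same settings in KO2 (0). H3K4me3 regions gained in KO1 (2) were 4 at 50% overlap, 1 at the stricter q and 1 merged, and 5 merged in KO2 (12). Those lost were 5, 17 (50% overlap) and 1 (merged) in KO1 (10) and 4 and 2 in KO2 (9).

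Directions that reversed where either value was called were, with chromosome medians subtracted, for H3K27ac locus length in KO2, Klf2 -0.25, Klf4 -0.57, Klf5 -0.037, Esrrb -0.53, Tfcp2l1 -0.24 and Zfp42 -0.48; in KO1, Tfcp2l1 -0.13 and Tbx3 -0.11; in KO2 minus KO1, Klf2 -0.64, Klf4 -0.48, Esrrb -0.082, Tfcp2l1 -0.11 and Zfp42 -0.10. The Klf2 H3K27ac promoter became -10.8 (KO2) and -11.6 (KO2 minus KO1). For H3K4me3 locus length Klf4 became 0.35, Esrrb 0.24 and Zfp42 0.29 in KO1, and Zfp42 0.20 in KO2. With quantile normalization the H3K27ac locus values in KO2 were Klf2 -0.14, Klf4 -0.51, Klf5 -0.071, Esrrb -0.048, Tfcp2l1 -0.031 and Zfp42 -0.67, and in KO2 minus KO1 Klf2 -0.37, Klf4 -0.27, Tfcp2l1 -0.11, Prdm14 -0.030 and Zfp42 -0.014. H3K27ac promoters were Klf2 -15.8 and Nr5a2 -2.87 (KO2), and Klf2 -15.3, Nr5a2 -3.09 and Zfp42 -3.42 (KO2 minus KO1). H3K4me3 loci were Klf4 0.24, Tbx3 0.20 and Tfcp2l1 0.29 (KO1), and Esrrb 0.14 and Zfp42 0.0059 (KO2). Klf2 H3K4me3 in KO2 was -0.15 with a 100 kb flank. A further 15 values changed sign with chromosome medians and 10 with quantile normalization, with neither value called.

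Same-numbered replicates did not deviate together from gene to gene (correlations of at most 0.038). A shift shared by all genes does not enter these correlations, so they cannot decide whether the numbers are a pairing. A replicate block moved the H3K4me3 locus count of KO1 from 1 to 3 lower and changed none of the other 11 counts of genes called. Peak lists carry no read totals, so depth is unknown, and a missing peak does not show that the mark is absent. With 2 libraries per genotype, a gene without a call was not shown to be alike in the groups.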

Other observations

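For each factor, the gene at least 1 Mb away or on another chromosome whose locus length varied most like it over the 12 libraries was found, on the log2(bp + 500) scale with the mean of each library over tested genes subtracted. It is a description with no test: 6 libraries of each mark enter together, so a difference in level between the marks raises the correlation, and the points share library and depth. The closest genes were Clec4a3 for Klf2 (Pearson's r = 0.991), Frmd8 for Klf4 (0.981), Tsc22d1 for Klf5 (0.967), Gpc3 for Esrrb (0.910), 1700071K01Rik for Tfcp2l1 (0.965), Krtdap for Tbx3 (0.987), Acaa2 for Prdm14 (0.953), Tagln for Nr5a2 (0.990) and Nup160 for Zfp42 (0.937). None of them is another of the 9 factors.

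Among 23 formative and primed genes tested, 3 promoters were called lower for H3K4me3 in KO2, with 6.05% of all promoters: Lefty1 by -46.2 ± 6.9 points (SE; limma adjusted p = 0.0132), Lefty2 by -25.8 ± 3.7 (adjusted p = 0.0117) and Fgfr1 by -23.8 ± 4.8 (adjusted p = 0.0295). Lefty1 and Lefty2 are inhibitors of Nodal signalling, and Fgfr1 is a receptor for FGF. In KO1, with 1.64% of all promoters called lower, 1 of the 23 was, Tcf15 (-29.6 ± 4.2 points, adjusted p = 0.0267). The H3K27ac locus length of Dnmt3a, a DNA methyltransferase, was higher in KO2 by 2.64 ± 0.21 on the log2 scale (adjusted p = 2.87e-07), and that of Etv4 by 2.42 ± 0.18 (adjusted p = 2.16e-07). Both stayed higher after quantile normalization.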
